A study of Mus musculus with 2 samples.

Results

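Setdb1 encodes a methyltransferase that places trimethyl marks on histone H3 lysine 9, a mark of silent chromatin. The messages described here are those of Setdb1 and of 8 genes whose proteins work with it. They were chosen by name, as Setdb1, its cofactors Atf7ip and Trim28, the 3 heterochromatin protein 1 (HP1) genes Cbx1, Cbx3 and Cbx5, and Mphosph8, Pphln1 and Morc2a of the human silencing hub (HUSH) pathway. All 9 were found among the 54680 loci of the deposited table, each on 1 locus, and all 9 reached 1 FPKM in at least 1 library, as did 10671 loci in all. FPKM is a fragment count divided by gene model length and by sequencing depth.

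The cells were CT26, a mouse colon cancer line. In the knockdown group a lentivirus carried a short hairpin RNA against Setdb1 (shSetdb1), and in the control group (shCtrl, labelled wild type) a lentivirus carried the empty knockdown vector. Cells of both groups were grown for 6 days, and the knockdown cells are labelled as differentiated by then. Whether the knockdown cells were 1 clone or a pool, and the sequence and number of hairpins, are not given in the sources used here. Each group had 1 library, so no difference below has a replicate check, no test between conditions is possible, and every difference is one between these 2 libraries.

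As background, TRIM28 (also called KAP1) is brought to DNA by zinc finger proteins and recruits SETDB1, and ATF7IP binds SETDB1 and keeps it in the nucleus. HP1 proteins read the histone mark that SETDB1 writes. The HUSH complex, built from the scaffold TASOR with MPP8 (gene Mphosph8) and periphilin (gene Pphln1), guides SETDB1 and the ATPase MORC2 to transposons and other intron-poor transcribed sequences. In bulk cells, fewer cells with a message and less message per cell cannot be told apart.

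The libraries held 18421604 reads (control) and 19045830 reads (knockdown), recovered as whole numbers from the deposited values. Ratios of reads are given relative to these totals, with 95% exact binomial (Clopper-Pearson) intervals. The intervals cover counting error only, since amplified reads without molecular identifiers are not independent molecules. Of 11 colon epithelial markers, Epcam, Cdh1 and Cdx1 had no read in either library and 3 reached 1 FPKM, with summed levels of 43.9 FPKM (control) and 128 FPKM (knockdown). All 7 mesenchymal markers reached 1 FPKM, with summed levels of 1320 and 1582 FPKM. Of these 7, 3 had a log2 ratio above 0 (Vim, Fn1 and S100a4, which make up most of the sum) and 4 below 0, from -0.96 for Col3a1, with a median of -0.15. Of the immune cell markers, Cd3e, Itgam and Adgre1 had no read in either library and Ptprc had 0 and 4, while Cd68 went from 245 to 2360 reads. Whether any of these moved with the genes below was not tested.

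The HP1 genes are paralogs, and Cbx3 also has processed copies elsewhere in the genome, so it matters which reads could be told apart. The lines below show, from GENCODE M21 transcripts of GRCm38, the 90 coding bases (in the part that encodes the chromoshadow domain) in which the 3 genes are most alike, with capitals at bases that are not the same in all 3. The windows start at coding base 388 of Cbx1 and at coding base 400 of Cbx3 and Cbx5, counted from the start codon.
Cbx1 (chromosome 11): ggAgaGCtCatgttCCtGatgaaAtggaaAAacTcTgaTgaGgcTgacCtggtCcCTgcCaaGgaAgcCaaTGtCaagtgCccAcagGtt
Cbx3 (chromosome 6): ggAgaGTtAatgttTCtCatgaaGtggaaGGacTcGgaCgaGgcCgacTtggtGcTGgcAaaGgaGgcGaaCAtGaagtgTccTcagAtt
Cbx5 (chromosome 15): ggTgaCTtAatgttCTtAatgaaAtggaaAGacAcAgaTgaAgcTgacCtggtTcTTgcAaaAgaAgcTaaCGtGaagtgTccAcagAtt

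Even in this stretch only 61 of 90 bases were alike in all 3. Over the aligned coding bases, Cbx1 and Cbx3 were 72.2% identical, Cbx1 and Cbx5 72.3%, and Cbx3 and Cbx5 72.4%, and the longest identical run in any pair was 20 bases. Reads of the 3 HP1 genes can thus be told from each other. The same window of the copy Gm4528, on chromosome 7, is shown next because it took most of the reads at Cbx3 copies. Its capitals mark the 11 bases that differ from Cbx3.
Gm4528: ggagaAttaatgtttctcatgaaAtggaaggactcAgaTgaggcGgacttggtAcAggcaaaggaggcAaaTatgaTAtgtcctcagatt

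Copies Cbx3-ps6 (chromosome 14) and Cbx3-ps7 (chromosome 1) had 0 differences from Cbx3 in this window, and were 99.8% and 99.6% identical to it over its 549 coding bases. Of the distinct 100-base stretches in Cbx3 transcripts, 6.91% also occurred in transcripts of other loci. How reads with several matches were counted is not given in the sources used here. The deposited table matched 22 other loci to the Cbx3 protein, and 3 of them held reads, 4 in the shCtrl library and 9 in the shSetdb1 library. Of those 9, 7 were at Gm4528.

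Setdb1 has a partial copy too. The lincRNA locus Gm4349, at 95427671 to 95431087 on the same chromosome, shares a run of 168 bases with the Setdb1 message. The first 60 coding bases of Setdb1 lie in that run and are shown because a read from them cannot be assigned to either locus.
Setdb1 and Gm4349: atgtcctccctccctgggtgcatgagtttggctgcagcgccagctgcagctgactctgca

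Gm4349 held 6 reads in the shCtrl library and 1 in the shSetdb1 library. Of the 100-base stretches of Setdb1, 5.61% occurred in transcripts of other loci. For Mphosph8 (5.67%, all in Gm16973, a lincRNA locus that overlaps it) and Morc2a (5.89%, all in Tug1) the shares were similar. Trim28, Cbx1, Cbx5 and Pphln1 shared 0 such stretches, and Atf7ip 0.10%.

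Setdb1 (ENSMUSG00000015697; GRCm38 chromosome 3, 95323525 to 95357202, minus strand) was the targeted gene. It held 1340 reads in the shCtrl library and 317 in the shSetdb1 library, or 10.4 and 2.47 FPKM. The read ratio was 0.229 (interval 0.202 to 0.259), and the log2 ratio of (FPKM + 1), knockdown over control, was -1.72. It was the only 1 of the 9 genes at least 2-fold lower on this scale, and 0 were 2-fold higher. Among all 10671 genes, 4.85% were 2-fold lower and 6.81% 2-fold higher. Only 0.909% of genes had a lower ratio than Setdb1. The last 75 bases of its span are shared with Cers2, a ceramide synthase gene on the other strand, with 12233 and 8639 reads. The strand used in counting is not given, so reads in those bases could belong to either gene.

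**Figure D1:**
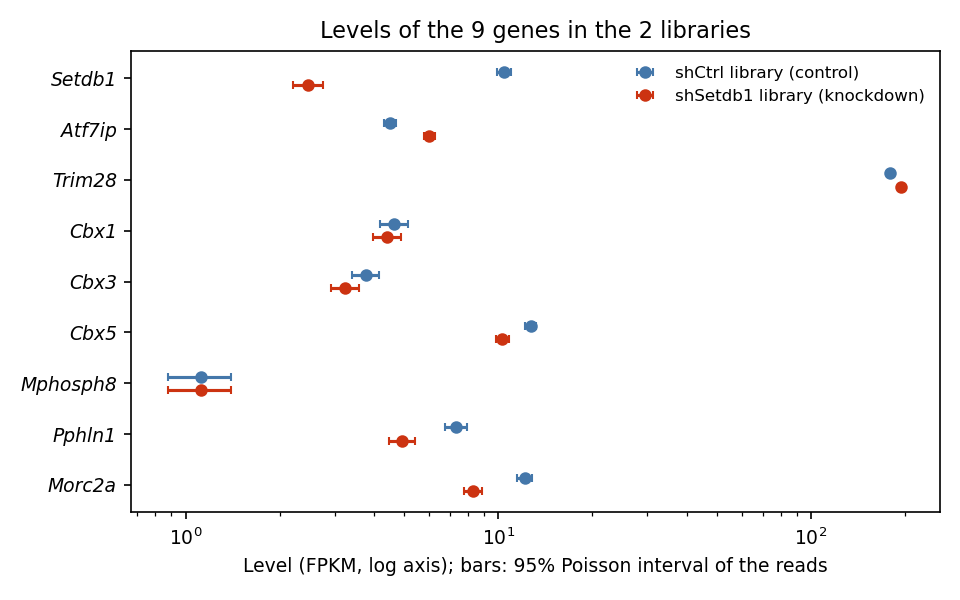
Level of each of the 9 genes in FPKM on a log axis, in the control (blue) and the knockdown (red) library, with 95% Poisson intervals of the reads. Setdb1 went from 10.4 to 2.47 FPKM, Trim28 was near 180 to 194 FPKM in both, and the Mphosph8 points coincide at 1.12 FPKM.

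The cofactor genes were not lower, except Trim28 under a correction given below. Atf7ip (chromosome 6, 136506167 to 136610862) held 1749 reads in the shCtrl library and 2332 in the shSetdb1 library, or 4.51 and 6.01 FPKM. Its read ratio of 1.29 (1.21 to 1.37) was the highest of the 9 genes, and its log2 ratio was 0.35. The message of this SETDB1 partner was thus higher where that of Setdb1 was lower. Trim28 (chromosome 7, 12999114 to 13031035) had the highest level of the 9 genes, with 179.6 FPKM (13990 reads) in the shCtrl library and 193.9 FPKM (15103 reads) in the shSetdb1 library. Its read ratio was 1.04 (1.02 to 1.07) and its log2 ratio 0.11, which fell to between 0.0499 and 0.0620 under 3 of the 4 scalings and to -0.16 once corrected for GC content and length. The span of Trim28 contains Zbtb45 on the other strand, with 567 and 758 reads.

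Within each library, levels per length can be set against Setdb1. Trim28 stood at 17.2 times the Setdb1 level in the shCtrl library (16.3 to 18.2) and 78.5 times in the shSetdb1 library (70.3 to 88.0). Atf7ip was at 0.432 times Setdb1 in the shCtrl library (0.402 to 0.464) and at 2.43 times in the shSetdb1 library (2.16 to 2.74). So Atf7ip lay below Setdb1 in the shCtrl library and above it in the shSetdb1 library, while Trim28 lay above both genes in each. The gene model length bears on this: the Atf7ip model is 20726 bases, while its longest coding transcript is 8059 bases, and Setdb1 has 6853 and 4658. Scaled to the longest coding transcript, Setdb1 was at 15.4 and 3.63 FPKM and Atf7ip at 11.6 and 15.4 FPKM (control and knockdown), the same change of order.

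Each HP1 gene differed by less than 1.5-fold between the libraries. Cbx5, which encodes HP1 alpha (chromosome 15, 103191544 to 103239816, minus strand), held 2141 and 1738 reads, or 12.7 and 10.3 FPKM. Its read ratio was 0.785 (0.737 to 0.837) and its log2 ratio -0.28. Cbx3, which encodes HP1 gamma (chromosome 6, 51470360 to 51483704), held 422 and 363 reads, or 3.76 and 3.23 FPKM, with a read ratio of 0.832 (0.721 to 0.960). For Cbx1, which encodes HP1 beta (chromosome 11, 96789127 to 96808640), the reads were 371 and 353, or 4.64 and 4.41 FPKM. Its read ratio of 0.920 had an interval of 0.793 to 1.07, so a difference was not detectable at this depth. The log2 ratios of Cbx3 (-0.17) and Cbx1 (-0.0588) changed sign to 0.03 and 0.04 once corrected for GC content and length. The Cbx5 ratio came closer to 0, at -0.0517.

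The summed HP1 level was 21.1 FPKM in the shCtrl library and 17.9 FPKM in the shSetdb1 library. Cbx5 made up 60.2% and 57.4% of it, Cbx1 22.0% and 24.6%, and Cbx3 17.8% and 18.0%. Per gene model length, the order of the 3 was the same in both libraries. Cbx5 stood at 2.74 times Cbx1 in the shCtrl library (2.45 to 3.07) and at 2.34 times in the shSetdb1 library (2.08 to 2.63), and these intervals overlap. The order rests on the gene models, which are much longer than the coding transcripts for Cbx1 (4273 and 1824 bases) and Cbx3 (5992 and 1889 bases). Scaled to the longest coding transcript, the control levels were 12.98 FPKM for Cbx5, 11.9 for Cbx3 and 10.9 for Cbx1, so most of the gap closed. The interval of Cbx3 (10.8 to 13.1) overlapped those of Cbx5 (12.4 to 13.5) and Cbx1 (9.78 to 12.0) in that library. The knockdown levels on that scale were 10.54 FPKM for Cbx5, 10.33 for Cbx1 and 10.26 for Cbx3, and the Poisson intervals of all 3 overlapped, so no order can be read there.

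**Figure D2:**
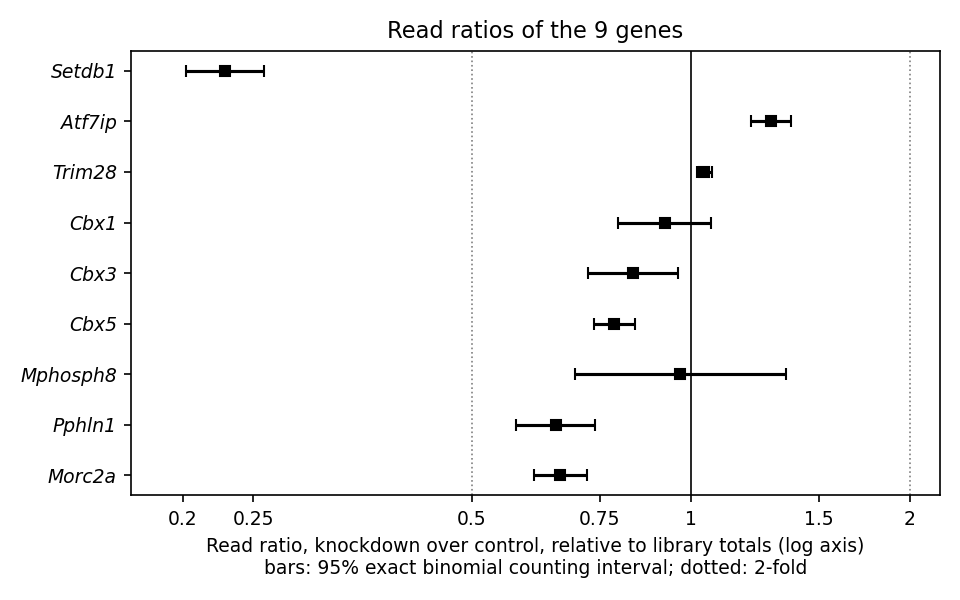
Read ratio, knockdown over control and relative to library totals, for each of the 9 genes on a log axis, with 95% counting intervals and dotted lines at 2-fold. Setdb1 alone lies beyond the lower 2-fold line, and the intervals of Cbx1 and Mphosph8 include 1.

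Of the HUSH pathway genes among the 9, Pphln1 and Morc2a were lower in the shSetdb1 library, and for Mphosph8 a difference was not detectable at its depth. Pphln1, the periphilin gene (chromosome 15, 93398350 to 93491510), held 623 reads in the shCtrl library and 420 in the shSetdb1 library, or 7.32 and 4.93 FPKM. Its read ratio was 0.652 (0.575 to 0.739) and its log2 ratio -0.49. Morc2a, the mouse gene of the ATPase MORC2 (chromosome 11, 3649494 to 3690477), held 1366 and 934 reads, or 12.1 and 8.29 FPKM. The read ratio was 0.661 (0.608 to 0.719) and the log2 ratio -0.50. These were the lowest ratios of the 9 genes after Setdb1, and 17.5% (Morc2a) and 18.2% (Pphln1) of all genes had lower ones. Both stayed below 0 under every alternative run, between -0.56 and -0.36 for Pphln1 and between -0.55 and -0.50 for Morc2a. On this log2 scale neither reached 1.5-fold lower in any of them, while by read ratio they were 1.53-fold (Pphln1) and 1.51-fold (Morc2a) lower.

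Mphosph8, whose protein binds methylated H3 lysine 9 through its chromodomain (chromosome 14, 56668248 to 56697430), held 75 reads in each library, or 1.12 FPKM. The read ratio was 0.967 with an interval of 0.693 to 1.35, which overlaps those of Pphln1 and Morc2a. Overlap of intervals does not decide whether the ratios differ, and whether they did was not tested. Gm16973, which overlaps its end on the other strand and is matched to the same protein in the table, held 17 and 9 reads. Pphln1 stood at 6.55 times the Mphosph8 level in the shCtrl library (5.15 to 8.44) and 4.42 times in the shSetdb1 library (3.45 to 5.73).

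The HUSH scaffold gene Tasor, listed as Fam208a, was far less abundant, at 0.282 FPKM (72 reads) in the shCtrl library and 0.118 FPKM (30 reads) in the shSetdb1 library. Its read ratio was 0.403 (0.254 to 0.625). Its paralog Tasor2 (Fam208b) was similar, at 0.407 and 0.184 FPKM (95 and 43 reads), with a ratio of 0.438 (0.298 to 0.634). Neither passed the 1 FPKM minimum, and on the log2(FPKM + 1) scale their ratios were only -0.20 and -0.25, since that scale understates differences at low levels. Among the genes that passed it, 9.6% were 2-fold lower by read ratio. The GC content of Tasor (38.9%) and Tasor2 (40.9%) falls in the range of the lowest decile of those genes, whose median log2 ratio was -0.20. Among MORC paralogs, Morc2b had 0 reads in the shCtrl library and 1 in the shSetdb1 library, and Morc1 had 1 and 0. Morc3 held 191 and 252 reads (log2 ratio 0.27) and Morc4 152 and 113 (log2 ratio -0.23).

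By level per gene model length, the order in the shCtrl library was Trim28, Cbx5, Morc2a, Setdb1, Pphln1, Cbx1, Atf7ip, Cbx3 and Mphosph8. The Poisson intervals of the neighbours Cbx5 (12.2 to 13.2 FPKM) and Morc2a (11.5 to 12.8 FPKM) overlapped, and so did those of Cbx1 (4.18 to 5.13 FPKM) and Atf7ip (4.30 to 4.72 FPKM). Other neighbours did not overlap. In the shSetdb1 library Setdb1 went from place 4 to place 8, between Cbx3 and Mphosph8, and Atf7ip from place 7 to place 4. There, only Pphln1 (4.47 to 5.43 FPKM) and Cbx1 (3.96 to 4.90 FPKM) overlapped as neighbours. The places depend on the length used. Per longest coding transcript, Setdb1 was at place 2 in the shCtrl library (15.4 FPKM, above Cbx5 and Morc2a) and again at place 8 in the shSetdb1 library. Atf7ip went from place 6 to place 2, though its shCtrl interval overlapped those of Cbx3 and Cbx1. Pphln1 lay below Cbx1 and Cbx3 in both libraries, with an interval that overlapped that of Cbx1 in the shCtrl library.

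**Figure D3:**
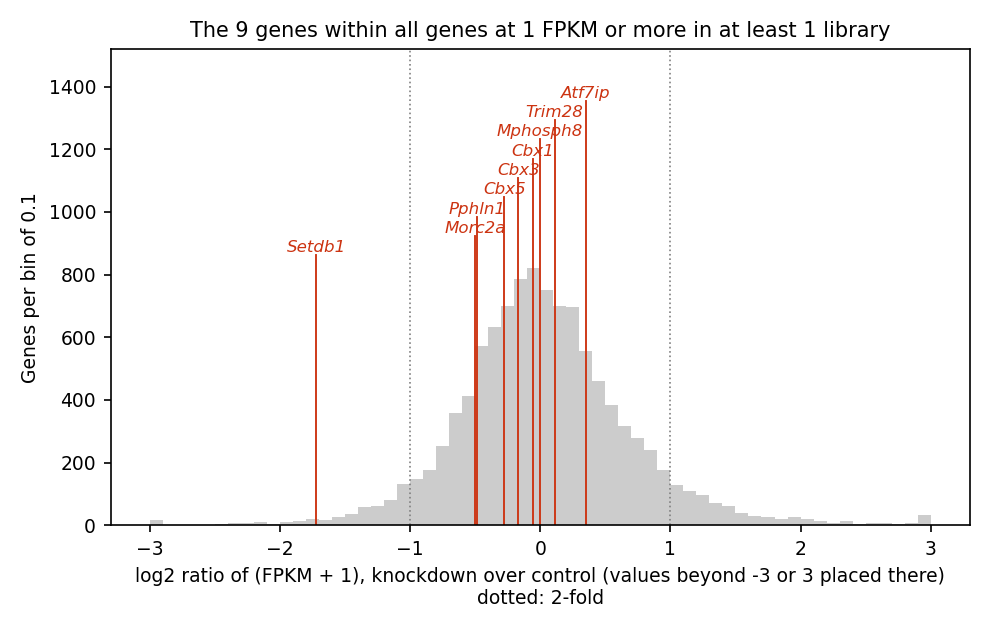
Number of genes per bin of 0.1 in the log2 ratio of (FPKM + 1), knockdown over control, for the 10671 genes that reached 1 FPKM in either library (grey), with the 9 genes as red lines and dotted lines at 2-fold. Setdb1 at -1.72 lies in the lower tail, and the other 8 lie between -0.50 and 0.35.

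Of the 8 genes other than Setdb1, 6 had log2 ratios within the middle 50% of all genes, which ran from -0.36 to 0.38, and Morc2a and Pphln1 lay below it. The median of the 8 was -0.11 and that of all genes -0.00039. Counting intervals lay below 1 for 5 of the 9 genes (Setdb1, Cbx3, Cbx5, Pphln1 and Morc2a) and above 1 for 2 (Atf7ip and Trim28). Such intervals are common at this depth: 40.6% of all genes lay below 1 and 35.2% above it. The members' shares are therefore read only as a description.

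GC content moved with the ratios across the table. Genes in the lowest decile of GC content had a median log2 ratio of -0.20, and those in the highest decile 0.21. Among the 9 genes, GC content of the longest transcript ran from 38.7% for Cbx3 to 59.6% for Trim28. Ratios of Cbx1, Cbx3, Cbx5, Mphosph8 and Trim28 lay within the middle 50% of their decile. Pphln1, at GC 43.9%, lay just under that range, Morc2a, at 49.7%, at percentile 16.3 of its decile, Atf7ip, at 47.7%, at percentile 78.6, and Setdb1, at 48.3%, at percentile 0.475. The part of GC content by itself in these ratios was not tested. The correction for GC content and length together left Setdb1 at -1.67, Pphln1 at -0.36 and Morc2a at -0.50, and Atf7ip at 0.63.

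**Figure D4:**
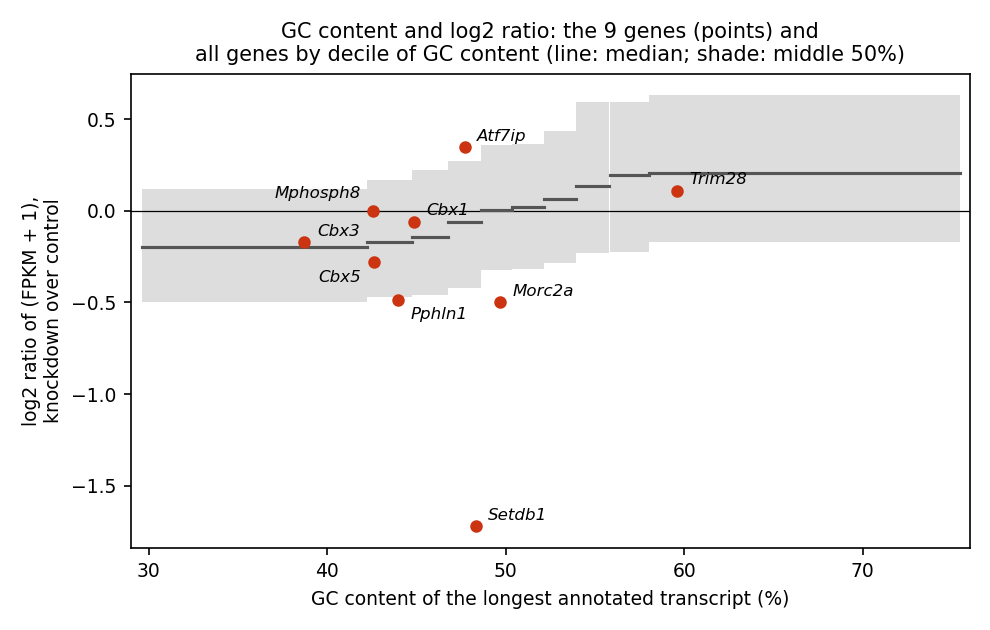
Log2 ratio of (FPKM + 1), knockdown over control, against GC content of the longest annotated transcript in percent, with the 9 genes as red points and, for each GC decile of all genes, the median (line) and the middle 50% (shade). The medians run from -0.20 to 0.21, and Setdb1, Morc2a and Pphln1 lie below the shade while Atf7ip lies above it.

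Several of the 9 genes share a start region with a neighbour on the other strand. Cbx5 and Hnrnpa1, which encodes an RNA-binding protein, start 616 bases apart, and Hnrnpa1 held 5671 and 6063 reads (log2 ratio 0.10). Cbx3 and Hnrnpa2b1 start 466 bases apart, and the neighbour held 3757 and 4473 reads (log2 ratio 0.24). Pphln1 and Zcrb1, a splicing factor gene, start 16 bases apart, and Zcrb1 held 812 and 943 reads (log2 ratio 0.20). In these 3 pairs the neighbour's ratio was above 0 and the member's below 0, although the Cbx3 ratio was above 0 once corrected for GC content and length, and the read ratio of Hnrnpa1 had an interval that includes 1 (0.997 to 1.07). Morc2a and the noncoding RNA gene Tug1 overlap by 180 bases at their starts in the deposited table, and both were lower in the shSetdb1 library. As the strand used in counting is not given, reads in the overlap could belong to either gene. Tug1 held 329 and 146 reads, with a ratio of 0.429 (0.351 to 0.523). Mphosph8 starts 124 bases from Gm4032, which had 3 and 4 reads.

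All 9 genes had an entry among the RefSeq promoter sequences (GRCm38.p6), from which the 250 bases before the start nearest to the deposited one were searched on both strands. A GC box (GGGCGG or CCGCCC) was found in 8 of 9, the exception being Pphln1, against 32.7% of 32851 promoters. A CCAAT box (CCAAT or ATTGG) was found in 5 of 9, against 33.8%, and a TATA box (TATAAA or TTTATA) in 0, against 12.4%. CG dinucleotides numbered from 13 (Setdb1) to 46 (Pphln1) per 250 bases, above the median of 6 over all promoters. The 32851 promoters were not limited to expressed genes, whereas all 9 genes were expressed. These counts are therefore not read as particular to the 9 genes. The nearest RefSeq start lay 12684 bases from the deposited one for Atf7ip, 25038 bases for Trim28 and 256 bases for Cbx3. For these genes the 250 bases searched lay inside the deposited gene span. The promoter of the targeted gene and that of Cbx5, the most abundant HP1 gene per model length, are shown with motif matches in capitals. They lie at chr3:95357203-95357452 and chr15:103239853-103240102, minus strand.
Setdb1: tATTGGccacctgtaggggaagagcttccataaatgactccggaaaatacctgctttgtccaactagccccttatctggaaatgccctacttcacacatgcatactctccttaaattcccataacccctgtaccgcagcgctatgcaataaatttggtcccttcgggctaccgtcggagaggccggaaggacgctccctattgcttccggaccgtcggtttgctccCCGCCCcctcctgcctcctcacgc
Cbx5: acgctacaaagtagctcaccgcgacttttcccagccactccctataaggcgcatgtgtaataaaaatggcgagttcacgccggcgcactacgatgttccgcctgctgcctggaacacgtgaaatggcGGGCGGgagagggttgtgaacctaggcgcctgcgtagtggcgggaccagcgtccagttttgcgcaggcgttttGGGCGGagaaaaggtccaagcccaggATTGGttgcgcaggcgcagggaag

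The other genes of the pathway were described by 6 lists with 55 genes, of which 45 reached 1 FPKM in at least 1 library. On the log2(FPKM + 1) scale, 0 of these 45 were 2-fold lower and 1 was 2-fold higher (all genes: 4.85% and 6.81%), and the median log2 ratio was -0.0390. The 1 gene was Pias4, a SUMO ligase gene, with 794 and 1682 reads and a log2 ratio of 1.02. It fell short of 2-fold under 3 of the 4 scalings (0.96 to 0.98) and once corrected for GC content and length (0.75). By read ratio, 4 of the 45 were 2-fold lower and 1, again Pias4, was 2-fold higher (all genes: 9.6% and 10.3%). The 4 were Senp6 (ratio 0.428), Trim33 (0.457), Kmt5b (0.476) and Rbm7 (0.477), and the intervals of all 4 reached above 0.5.

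Among 12 paralogs and partners of SETDB1 and TRIM28, 8 reached 1 FPKM, and their log2 ratios had a median of 0.08. Daxx, a histone H3.3 chaperone gene, had the highest ratio, with 861 and 1630 reads (log2 ratio 0.88). Trim33, a TRIM28 paralog, had the lowest, with 455 and 215 reads (-0.68). Trim24, another paralog, held 417 and 247 reads (-0.50), and Trim66 only 73 and 11. Zfp809, a zinc finger gene whose protein brings TRIM28 to retroviral DNA, held 132 and 72 reads (-0.56). The 3 TRIM28 paralogs thus had fewer reads in the shSetdb1 library, each with a counting interval below 1, as had 40.6% of all genes. Trim28 had more reads there, but its log2 ratio was -0.16 once corrected for GC content and length. Trim24, Trim66, Zfp809 and Setdb2 were named after their values were seen. Setdb2 held 98 and 109 reads, a ratio of 1.08 (0.811 to 1.43).

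SUMO attachment to TRIM28 is what SETDB1 binds, and 16 of 17 SUMO pathway genes reached 1 FPKM. Their median log2 ratio was -0.21, with 11 below 0 and 5 above, and 0.15 with a minimum of 5 FPKM in place of 1. Senp6, a SUMO protease gene, was lowest, with 314 and 139 reads (log2 ratio -0.72). The ligase genes Pias4, Pias3 (1322 and 1960 reads, 0.54) and Pias1 (510 and 701 reads, 0.38) were above 0, whereas Pias2 (461 and 317 reads, -0.43) was below. The protease genes Senp1, Senp2, Senp3, Senp5 and Senp6 were all below 0, from -0.72 to -0.24. Counting intervals lay below 1 for 10 of the 16 genes and above 1 for 5. Among all genes the median log2 ratio was -0.00039, and counting intervals lay below 1 for 40.6% and above 1 for 35.2%. Apart from Pias4 and Senp6, the ligase and protease genes were named after their values were seen.

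Of 12 genes for HP1-binding proteins, 11 reached 1 FPKM, and their median log2 ratio was 0.36, or 0.22 once corrected for GC content and length. Kmt5c, a histone H4 lysine methyltransferase gene, was highest, with 400 and 814 reads (0.90). Its paralog Kmt5b held 299 and 147 reads (-0.45). The 2 listed genes for subunits of chromatin assembly factor 1 both had ratios above 0, with 1692 and 3283 reads for Chaf1a (0.89) and 736 and 1243 for Chaf1b (0.69). Counting intervals lay above 1 for 7 of the 11 genes and below 1 for 2, against 35.2% and 40.6% of all genes. Sgo1, which protects centromeric cohesion, was lowest, with 371 and 211 reads (-0.65). Kmt5b, Chaf1a and Chaf1b were named after their values were seen.

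Polycomb chromobox genes, relatives of the HP1 genes that read another histone mark, had a median log2 ratio of 0.02 over 5 genes, and the highest was 0.54 for Cbx6. That median changed sign under 3 scalings and the correction for GC content and length. The nuclear exosome targeting complex, which degrades nuclear RNA and works with HUSH, had all 3 genes below 0. The median of these 3 was -0.53, from -0.34 for Zcchc8 (740 and 566 reads) to -0.56 for Mtrex (319 and 177 reads), and Rbm7 held 140 and 69 reads. The counting intervals of all 3 genes lay below 1, as did those of 40.6% of all genes. The median log2 ratio of all genes was -0.00039.

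**Figure D5:**
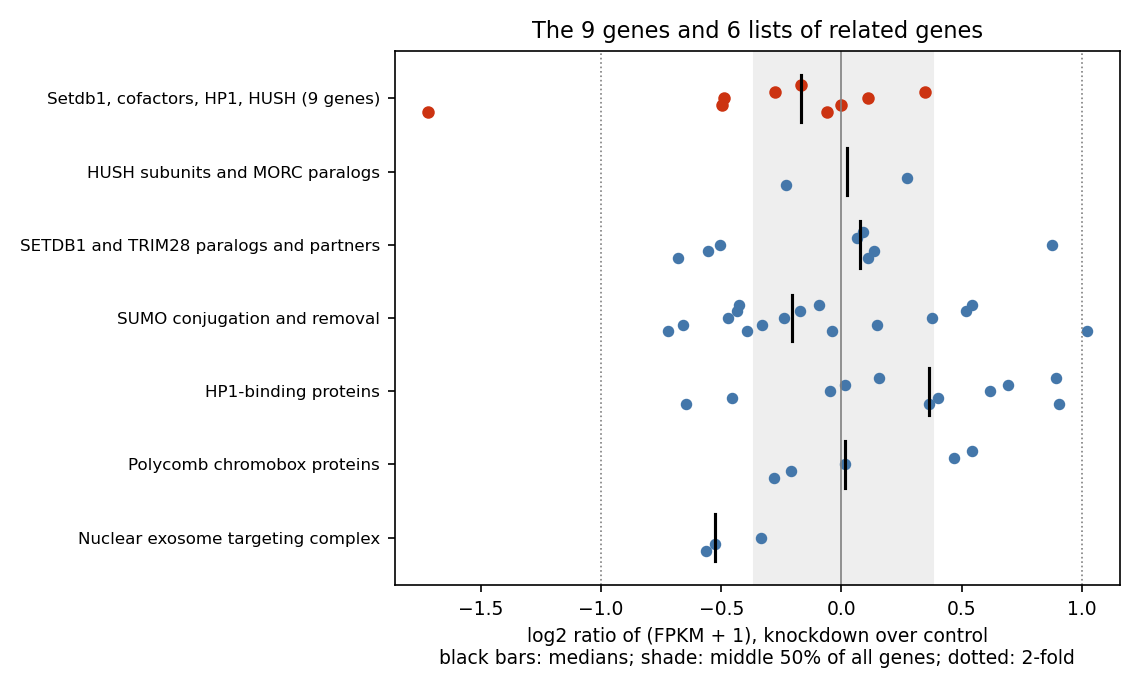
Log2 ratio of (FPKM + 1), knockdown over control, for the 9 genes (red) and for the genes of 6 related lists that reached 1 FPKM (blue), with list medians as black bars, the middle 50% of all genes shaded and dotted lines at 2-fold. Only Setdb1 (-1.72) and Pias4 (1.02) lie beyond the dotted lines.

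The protein-coding genes nearest to Setdb1 in both libraries were taken by Euclidean distance in log2(FPKM + 1) over the 2 libraries. They were Utp20 (10.4 and 2.72 FPKM, distance 0.0997), Glce (9.66 and 2.42 FPKM, 0.105), Htra1 (11.3 and 2.11 FPKM, 0.186), Adh7 (11.0 and 2.07 FPKM, 0.187) and Tcam1 (12.0 and 2.58 FPKM, 0.194). With only 2 libraries, this likeness says no more than that the level and the difference were similar.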

How the data were processed

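RNA was sequenced from 1 library per group, 2 groups in all. The authors deposited FPKM values for 54680 loci with gene lengths and positions, per the file headers. CASAVA, HISAT2, featureCounts 1.5.0-p3 and GRCm38 are listed in the submitters' processing notes without roles; strand, multimapping and filters are not given in the sources used here. FPKM times length gave whole reads (within 1e-06 of a read) for 100% of 34204 values above 0, with 1 common depth of 18731117 reads for both libraries, so FPKM still carries the 1.03 ratio of their totals. Whole-gene spans matched GENCODE M21 for 8 of the 9 genes; Morc2a starts at 3649191 there.

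Groups were taken from the genotype labels and columns from the library names. Computed here were log2 ratios of (FPKM + 1), a scale that understates differences of low genes; genes entered counts once they reached 1 FPKM in either library, and 2-fold was the threshold. No p-value was computed, as each group had a single library. Exact binomial and Poisson intervals were taken at 95%. GC content came from the longest GENCODE M21 transcript, found for 98.5% of the genes tested. The 9 genes, the 6 lists and the markers were chosen with earlier results of these data known. The text names the 9 genes, the highest and lowest gene of each list and any past 2-fold, neighbours that overlap or start within 1000 bases on the other strand, loci matched to the same protein, and the 5 genes nearest to Setdb1; others are said to be named after their values were seen. Tasor, Tasor2, Morc1 and Morc2b, under the 1 FPKM minimum, were also named after their values were seen. So were the markers that had reads (Krt18, Krt20, Lgals4, Cldn7, Vim, Fn1, S100a4, Col3a1, Ptprc and Cd68). Alternatives were another pseudocount, 4 scalings, other filters and thresholds, protein-coding genes only, reads summed over loci of the same protein, means, and, chosen after seeing the data, a lowess correction (span 0.3) for GC content and gene length. The calculations were tested on simulated reads. The tools were Biopython 1.88, statsmodels 0.14.6, scipy 1.17.1, matplotlib 3.10.9, pandas 2.3.3 and numpy 2.4.6 under Python 3.11.15. Single values of some list genes are not reported here.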

Additional observations from a re-analysis of the deposited data

How the results depend on the processing

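The main results were the Setdb1 ratio, the median of the 8 other genes, the counts of members and of all genes, and list medians. Of their 112 alternative values, 103 stayed within a set margin and 9 moved. The margin was 1.5 times for counts and the narrower half-width of the counting interval for the Setdb1 ratio. For medians it was the median half-width of their single genes, which is wide for a median. Some of the 103 could not move. Genes under 1 FPKM in both libraries cannot reach 2-fold on the log2(FPKM + 1) scale, so dropping the filter left those counts as they were. The mean and median of a 2-gene list are also the same, so the 103 is no measure of robustness. Setdb1 remained at least 2-fold lower and no member became 2-fold higher under any alternative. With a pseudocount of 0.1 the Setdb1 log2 ratio was -2.04, the nuclear exosome median -0.81, and 1134 genes were 2-fold higher and 870 lower. At 1.5-fold, 1804 genes were higher and 1523 lower, as that threshold makes them. After correction for GC content and length, the HP1-binding median was 0.22 and the polycomb chromobox median -0.15. With a minimum of 5 FPKM the SUMO median was 0.15, and no gene of the HUSH and MORC list was left. Except for the threshold, the cause was not tested. The median of the 8 other genes stayed below 0, from -0.16 to -0.00988, and the medians of 4 lists (HUSH and MORC, polycomb chromobox, SETDB1 and TRIM28 partners, SUMO) changed sign under at least 1 alternative. Of 69 alternative values for single genes, 7 moved: 4 of Trim28, which was 0.0499 to 0.0620 under 3 scalings and -0.16 with the GC and length correction, and those of Atf7ip (0.63), Cbx5 (-0.0517) and Pias4 (0.75) with that correction. Tasor was counted as not moved because its counting interval was wide, though its log2 ratio went from -0.20 to -0.81 with a pseudocount of 0.1. The scalings moved the median of all genes by between -0.0515 and 0.00166 on the log2 scale. No paired analysis was possible because the groups hold a single library each, which also means that none could be left out. Depth limits Mphosph8, with 75 reads in each library, and the low HUSH genes most.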
